A study of Mus musculus with 2 samples.

Results

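The 10 genes described here carry glucose, lactate and amino acids into or out of activated T cells, together with Myc, a transcription factor of cell growth. The rule is a list of symbols, grouped by what their products do. They are the glucose transporters Slc2a1 and Slc2a3, the system L pair Slc7a5 and Slc3a2, the neutral amino acid transporters Slc1a5, Slc38a1 and Slc38a2, the monocarboxylate transporters Slc16a1 and Slc16a3, and Myc. All 10 symbols were found among the 24421 genes listed in each table. RNA sequencing of in vitro skewed Th1 cells was compared between 1 library labelled WT Th1 (genotype Chi3l1+/+) and 1 library labelled KO Th1 (genotype Chi3l1-/-), both on the C57BL/6J background. Naïve CD4 T cells from young adult mice were stimulated on plates coated with antibodies to CD3 and CD28, in the presence of IL-12, IL-2 and an antibody against IL-4. The knockout was carried by the whole animal, so it was present before the T cells were taken. How many mice gave cells to each library, and the day of harvest of these libraries, were not given in the sources used here. With 1 library per genotype (n = 1 each) there was no replicate check and no test, and every difference below is between these libraries.

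A resting T cell lives on little glucose, whereas an activated T cell raises glucose uptake, exports the lactate it makes and takes up glutamine and large neutral amino acids to build protein and nucleotides. GLUT1 (Slc2a1) and GLUT3 (Slc2a3) bring glucose in, and MCT1 (Slc16a1) and MCT4 (Slc16a3) move lactate with a proton across the membrane. LAT1 (Slc7a5) is the transport subunit that exchanges leucine and other large neutral amino acids, and it needs the heavy chain CD98 (Slc3a2) to reach the surface. ASCT2 (Slc1a5), SNAT1 (Slc38a1) and SNAT2 (Slc38a2) carry glutamine and other neutral amino acids. Myc is induced by antigen receptor signals and is known to be needed for the rise of several of these transporters in activated T cells.

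Each deposited value was taken to be a log2-transformed normalized count, with 1 added before the log, because undoing the log gave even steps of about 1 read. The normalized counts summed to 68448996 in the library labelled WT Th1 and 60913079 in the library labelled KO Th1. Chil1, the symbol of Chi3l1 in the tables, had about 1 read in the library labelled WT Th1 and about 103 reads in the library labelled KO Th1, which is the opposite of what the labels would give. Values per gene do not show which exons these reads came from. The libraries are therefore named by their labels throughout, and every direction below rests on those labels. All 6 T cell markers were present in both libraries and lower in the library labelled KO Th1, and their summed normalized count was 99754 and 85115. The 4 B cell markers were higher in the library labelled KO Th1 (4 of 4), with sums of 847 and 1560. The summed normalized counts were 35115 and 42855 for the 4 Th1 markers (2 higher and 2 lower), 812 and 807 for the 2 CD8 T cell markers, 517 and 460 for the 4 macrophage and monocyte markers, of which Adgre1 was at 0 in both, and 74 and 117 for the 3 dendritic cell markers. They were 58 and 5 for the 4 neutrophil markers in the tables, of which S100a8, S100a9 and Elane were at 0 in the library labelled KO Th1, and 16 and 14 for the 2 NK cell markers, of which Ncr1 was at 0 in the library labelled WT Th1. The part of these other cells in the transporter values was not tested. In bulk RNA, fewer cells of a type, less RNA per cell and the scaling between the libraries cannot be told apart.

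All 10 genes were strongly expressed in both libraries, and none differed by 1.5-fold. In the deposited log2 values they ranged from 12.231 (Slc16a1) to 17.230 (Myc) in the library labelled WT Th1, and together they took 0.464% of its normalized counts and 0.487% of those of the library labelled KO Th1. Of the 10 genes, 5 were higher and 5 were lower in the library labelled KO Th1, with log2 fold changes from -0.469 to 0.485 and a median of 0.016. The 8886 genes that reached a log2 value of 8 in each library are called well expressed below, and their median was -0.011. None of the 10 genes was past 2-fold, where 1.2% of the well-expressed genes and 10.5% of all genes were. None was past 1.5-fold, where 10.2% of the well-expressed genes were. The 2480 genes that reached a log2 value of 12 in each library, as the 10 genes did, had a lower median of -0.097. Their quartiles were -0.288 and 0.093, and 6.13% of them were past 1.5-fold. At such shares, a list of 10 genes with none past 1.5-fold is near the background.

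**Figure D1:**
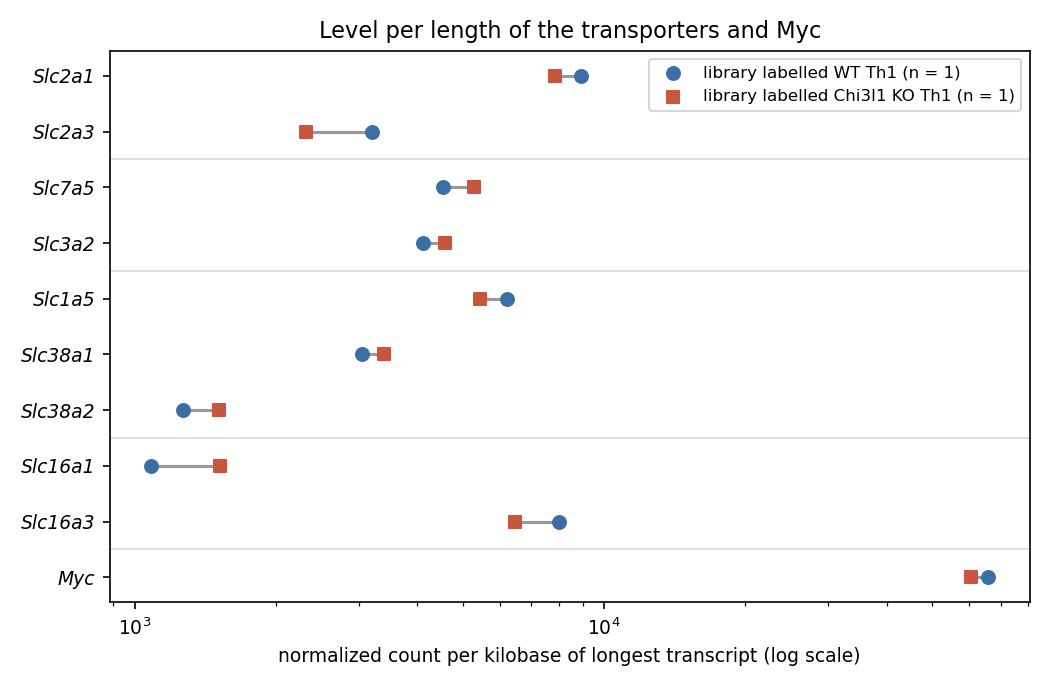
Normalized count per kilobase of the longest transcript (log scale) for each gene in the library labelled WT Th1 (circles) and the library labelled KO Th1 (squares), n = 1 each, with lines between gene groups. Myc stood far above the transporters at 65751 and 60377, and the transporters spread from 1086 to 8915.

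Levels of different genes were compared per kilobase of the longest annotated transcript, which removes the effect of length on the count. Myc was the highest by far, at 65751 normalized counts per kilobase in the library labelled WT Th1 and 60377 in the library labelled KO Th1, and 0.711% and 0.675% of well-expressed coding genes were higher. Slc2a1 came next with 8915 and 7859, then Slc16a3 with 8034 and 6467, Slc1a5 with 6208 and 5446, Slc7a5 with 4540 and 5285, and Slc3a2 with 4115 and 4588. By this length, these 6 genes held the same order in both libraries. Below them, Slc2a3 was ahead of Slc38a1 in the library labelled WT Th1 (3210 against 3057) and behind it in the library labelled KO Th1 (2319 against 3403). Slc38a2 and Slc16a1 were the lowest, at 1268 and 1086 in the library labelled WT Th1. In the library labelled KO Th1 they were at 1513 and 1520, a gap smaller than the counting error of either. With the union of all annotated exons as the length, Slc7a5 moved ahead of Slc1a5 in both libraries (4306 against 4176, and 5012 against 3663), and Slc16a1 moved ahead of Slc38a2 in the library labelled WT Th1 as well. By that length Slc2a3 stayed ahead of Slc38a1 in both libraries (2771 against 1289, and 2002 against 1435), so the order of these neighbours depends on the length assumed. With the median length of the coding transcripts, Slc2a3 ranked 3 and Slc7a5 ranked 7 in both libraries. Slc16a3 was then ahead of Slc3a2 in the library labelled WT Th1 (21452 against 17892). In the library labelled KO Th1 it was behind (17268 against 19949).

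The glucose transporters were both lower in the library labelled KO Th1, Slc2a3 more than Slc2a1. Slc2a1 (chromosome 4, 119108711 to 119137983, plus strand, GRCm38) had normalized counts of 29064 in the library labelled WT Th1 and 25619 in the library labelled KO Th1. Its log2 fold change was -0.182, with a 95% exact binomial interval from -0.206 to -0.158. This interval, from rebuilt read counts, covers counting error only, as do all those below. Slc2a3 (chromosome 6, 122727809 to 122801640, minus strand) went from 20072 to 14501, a fold of 0.722 and the lowest of the 10 genes. On the log2 scale this was -0.469 (interval -0.499 to -0.439), and 18.3% of well-expressed genes differed as much in either direction. The share was 12.2% among the genes reaching log2 12 in each library. Within a library, the per-kilobase ratio of Slc2a1 to Slc2a3 was 2.78 in the library labelled WT Th1 and 3.39 in the library labelled KO Th1. The log2 change of that ratio was 0.287, and 0.508 without the GC trend. Such a ratio does not depend on a single scaling factor between the libraries, though quantile normalization can change it.

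Of the other 11 hexose transporter genes listed, 5 were at 0 in both libraries. Of the rest, 4 were well expressed, and 2 of these were past 1.5-fold, both lower, where 6.29% of all well-expressed genes were lower by as much. Slc2a6 went from a log2 value of 9.197 to 8.363, and Slc2a8, an intracellular hexose transporter, from 9.033 to 8.307. Slc50a1, a sugar exporter, had 10.955 and 11.122. With the trend of fold change with GC content removed, as described below, Slc2a6 had a log2 fold change of -0.509 and Slc2a8 of -0.280, neither past 1.5-fold.

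The subunits of the LAT1 and CD98 transporter were both slightly higher in the library labelled KO Th1, Slc7a5 more than Slc3a2. Slc7a5 (chromosome 8, 121881150 to 121907694, minus strand) had normalized counts of 15968 and 18586, a difference of 0.219 on the log2 scale (interval 0.189 to 0.249). Slc3a2 (chromosome 19, 8706882 to 8723369, minus strand) had 11576 and 12907, a difference of 0.157 on the log2 scale (interval 0.121 to 0.193). The per-kilobase ratio of Slc7a5 to Slc3a2 was 1.10 in the library labelled WT Th1 and 1.15 in the library labelled KO Th1. With the union of exons as the length it was 1.31 and 1.37, so its level depends on the length assumed. The log2 change of the ratio was 0.062, with a counting interval from 0.015 to 0.109, and it was 0.176 without the GC trend. The light and heavy chains pair 1 to 1 in the membrane, which an mRNA ratio does not measure. Of the 2714 windows of 100 bases in the longest Slc3a2 transcript, 1.92% occur in transcripts of other genes. This share was at most 0.195% for the other 9 genes, so reads counted at several places could touch Slc3a2 most. Slc7a6, which also pairs with CD98, had log2 values of 11.352 and 11.477, and Slc7a8, another system L light chain, was low at 5.348 and 4.708.

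Among the glutamine transporters, Slc1a5 went one way and the SNAT genes the other. Slc1a5 (chromosome 7, 16781340 to 16798274, plus strand) had normalized counts of 17426 and 15286, a difference of -0.189 on the log2 scale (interval -0.220 to -0.158), and this sign turned to 0.049 once the GC trend was removed. Slc38a1 (chromosome 15, 96571418 to 96642913, minus strand) had 22210 and 24729, a difference of 0.155 on the log2 scale (interval 0.129 to 0.181). Slc38a2 (chromosome 15, 96687392 to 96699730, minus strand) had 7754 and 9254, a difference of 0.255 on the log2 scale (interval 0.212 to 0.298). Slc38a2 is the member of this family known to be induced when amino acids run short. The per-kilobase ratio of Slc1a5 to Slc38a1 was 2.03 in the library labelled WT Th1 and 1.60 in the library labelled KO Th1, and its log2 change of -0.344 became -0.038 without the GC trend.

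Of 31 further amino acid transporters, 14 were well expressed, 7 were higher and 7 lower, and the median log2 fold change was -0.004. Past 1.5-fold was 1 of them, or 7.14%, where 10.2% of all well-expressed genes were. This was Slc7a3, a cationic amino acid transporter, from a log2 value of 8.553 to 9.242. Slc7a11, the cystine and glutamate exchanger, went the other way, from 11.115 to 10.537, and without the GC trend its log2 fold change was -0.803, past 1.5-fold. Slc25a22, a mitochondrial glutamate carrier, had 13.595 and 13.155. Slc1a4, the closest relative of Slc1a5, had 8.945 and 9.129.

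The monocarboxylate transporters lay on opposite sides of zero. Slc16a1 (chromosome 3, 104638668 to 104658462, plus strand) had the highest fold of the 10 genes, 1.40, with normalized counts of 4806 in the library labelled WT Th1 and 6727 in the library labelled KO Th1. On the log2 scale this was 0.485 (interval 0.432 to 0.538), and 16.9% of well-expressed genes differed as much. The share was 10.8% among the genes reaching log2 12 in each library. Slc16a3 (chromosome 11, 120948480 to 120960868, plus strand), the isoform known from cells that export much lactate, had 34828 and 28035, a difference of -0.313 on the log2 scale (interval -0.335 to -0.291). The per-kilobase ratio of Slc16a3 to Slc16a1 was 7.40 in the library labelled WT Th1 and 4.25 in the library labelled KO Th1. The log2 change of that ratio was -0.798, with a counting interval from -0.855 to -0.741, and it was -0.371 without the GC trend. Slc16a3 was the higher of the pair in both libraries.

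The promoters of this pair are shown because the genes lay on opposite sides of zero and because Myc, with its partner Max, binds the E-box CACGTG. The letters are the 250 bases before the start that RefSeq gives (GRCm38.p6, plus strand), with each CACGTG, and each ACGTG on either strand, in capitals. ACGTG is the core of the hypoxia response element and lies inside every CACGTG. The Slc16a1 window is chr3:104638414-104638663 and the Slc16a3 window is chr11:120948817-120949066, and the annotation gives Slc16a3 a further start upstream of its window.
Slc16a1: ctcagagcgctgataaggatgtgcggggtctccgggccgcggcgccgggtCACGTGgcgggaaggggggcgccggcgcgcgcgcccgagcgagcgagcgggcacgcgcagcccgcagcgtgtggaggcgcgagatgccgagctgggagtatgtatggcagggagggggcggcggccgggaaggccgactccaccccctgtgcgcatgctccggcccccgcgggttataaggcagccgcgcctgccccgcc
Slc16a3: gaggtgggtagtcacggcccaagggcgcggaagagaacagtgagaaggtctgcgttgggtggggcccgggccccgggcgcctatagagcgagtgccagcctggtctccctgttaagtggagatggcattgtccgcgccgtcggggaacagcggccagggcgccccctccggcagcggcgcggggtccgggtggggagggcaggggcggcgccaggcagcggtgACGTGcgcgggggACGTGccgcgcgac

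The Slc16a1 window held 1 E-box, whose first base lies 200 bases before the start, and 1 further copy of ACGTG beyond the start, outside the letters shown, whereas the Slc16a3 window held no E-box and 2 copies of ACGTG, at 27 and 14 bases before the start. Over all 32851 promoter windows in the RefSeq table, each reaching from 250 bases before to 50 bases after a start, 7.15% held an E-box and 19.6% held ACGTG. The table had windows for 5 of the 10 genes, namely Slc16a1, Slc16a3, Slc2a1, Slc3a2 and Slc38a2. Of these, Slc16a1 alone held an E-box, and Slc2a1 and Slc3a2 each held 1 copy of ACGTG. The Slc3a2 window reached to 8714147, whereas the annotated gene, on the minus strand, begins upstream at 8723369, outside the window. None of the 5 held TGATGCAA, a site of ATF4 with C/EBP factors, on either strand, which 0.895% of all windows held. A match of letters is a description of the window and does not show that a factor was bound there.

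Of 16 further monocarboxylate carriers and chaperones, 6 were well expressed. None of these was past 1.5-fold, where 10.2% of all well-expressed genes were. Bsg, whose product basigin escorts MCT1 and MCT4 to the surface, had log2 values of 15.226 and 15.029. Emb, the other chaperone of this kind, had 12.020 and 12.086. The amino acid carrier Slc16a10 had 10.130 and 9.739. Mpc1, part of the mitochondrial pyruvate carrier, had 8.251 and 8.434.

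**Figure D2:**
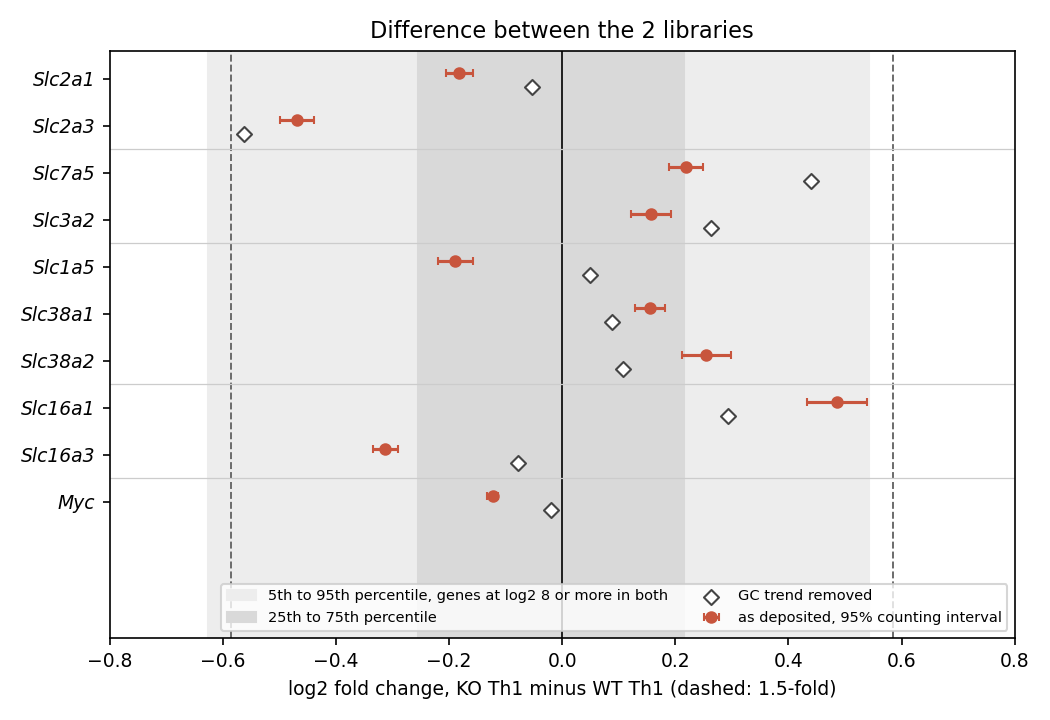
Log2 fold change (KO Th1 minus WT Th1) of each gene as deposited (filled circles with 95% counting intervals) and with the GC trend removed (open diamonds), n = 1 library each. Shading gives the 25th to 75th and 5th to 95th percentiles over the well-expressed genes. All 10 genes lay inside the dashed 1.5-fold lines in both, and Slc1a5 crossed zero.

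Myc mRNA was nearly level between the libraries. Myc (chromosome 15, 61985391 to 61990374, plus strand) had normalized counts of 153725 in the library labelled WT Th1 and 141162 in the library labelled KO Th1. On the log2 scale this was -0.123 (interval -0.133 to -0.113), and 72.5% of well-expressed genes differed as much. This sign did not hold under every scaling, since it was 0.086 after quantile normalization and 0.018 when the libraries were scaled to the total without the ribosomal RNA precursor Rn45s. Max had log2 values of 14.394 and 14.304, and the per-kilobase ratio of Myc to Max was 5.93 and 5.80.

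Of the 15 genes listed for the Myc family and its network, 11 were well expressed. None of these was past 1.5-fold, where 10.2% of all well-expressed genes were. The widest differences were those of Mxd3, which can take the place of Myc beside Max, with 12.314 and 11.892, and of Mlx, with 11.626 and 11.996. Mnt, a repressor that also pairs with Max, had 12.681 and 12.386. All 30 listed targets of Myc were well expressed, 20 were higher and 10 lower, and their median log2 fold change was 0.142 as deposited and 0.1 without the GC trend. Past 1.5-fold were 2 of them, both higher, where 3.95% of all well-expressed genes were higher by as much. The count was 4 after quantile normalization and 5 when scaled to Actb or to the total without Rn45s. The median was up to 0.283, when scaled to the total without Rn45s. Those last 2 scalings also raised the median of all well-expressed genes, from -0.011 to 0.105 and 0.13. The share of all well-expressed genes past 1.5-fold was not computed under these settings. Hspe1, a mitochondrial co-chaperonin, went from 11.404 to 12.327, and Mthfd2, a mitochondrial folate enzyme, from 12.361 to 12.987. Gnl3, a nucleolar protein, followed with 11.490 and 12.074.

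Of the 15 well-expressed genes for enzymes acting on imported nutrients, 10 were higher and 5 lower, down to a log2 fold change of -0.343. Their median was 0.226, or 0.157 without the GC trend, where that of all well-expressed genes was -0.011 and 0.0. None of these enzyme genes was past 1.5-fold as deposited, where 10.2% of all well-expressed genes were. Past that line were 2 of them when scaled to Actb or to the total without Rn45s. Those scalings raised the median of all well-expressed genes to 0.105 and 0.13. Asns, which uses glutamine as the nitrogen donor to make asparagine, had log2 values of 9.860 and 10.388. Gpt2, a mitochondrial transaminase, had 10.491 and 10.924. Among 25 measured genes of nutrient sensing and transporter control, 21 were well expressed, with a median log2 fold change of 0.032. Past 1.5-fold, as 3.95% of all well-expressed genes were in that direction, were Lamtor5, a subunit of the lysosomal Ragulator complex, with 8.349 and 9.232, and Rheb, the activator of mTORC1, with 9.536 and 10.161. Without the GC trend Lamtor5 stayed past 1.5-fold at 0.873 and Rheb, at 0.482, did not. Lamtor1, the membrane anchor of the same complex, went the other way with 13.291 and 12.910. Of 10 genes of activation and proliferation, 9 were well expressed. Past 1.5-fold was 1 of these, or 11.1%, where 10.2% of all well-expressed genes were. This was Il2rb, a chain of the IL-2 receptor, at 16.596 and 15.930. It was no longer past that line without the GC trend (-0.541), scaled to Actb or scaled to the total without Rn45s. Tnfrsf9 had 14.786 and 15.218, and Tnfrsf4 had 15.406 and 14.987.

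**Figure D3:**
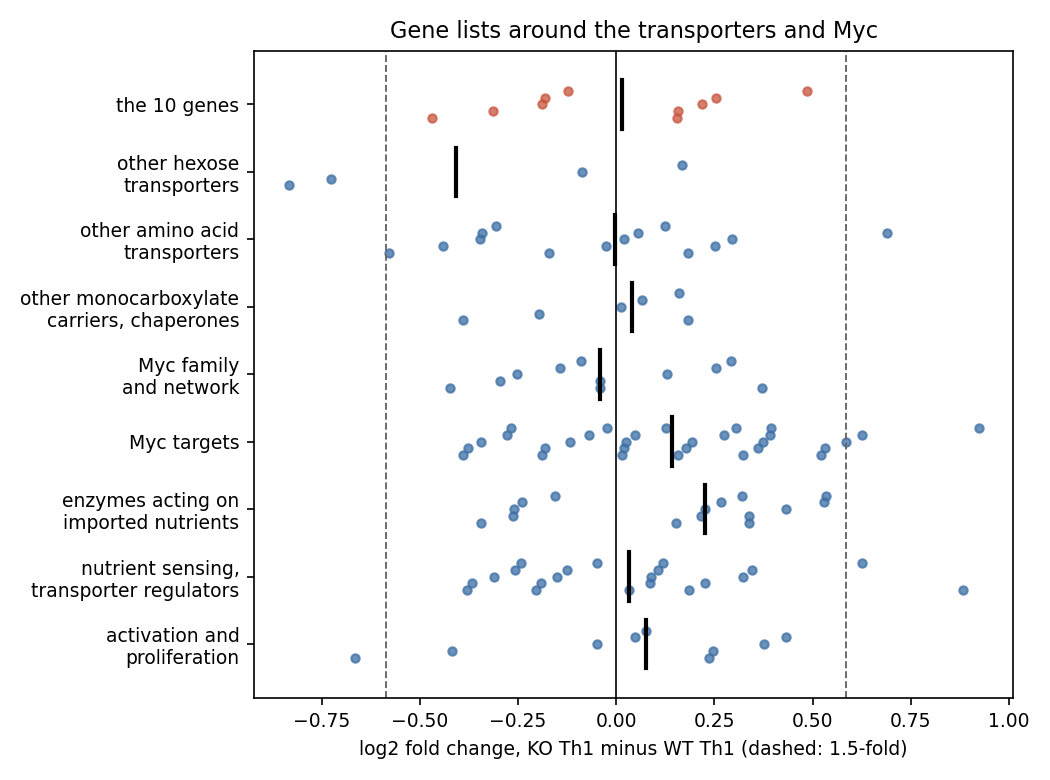
Log2 fold change (KO Th1 minus WT Th1) of every well-expressed gene of each list (points) with the list's median (black bar), n = 1 library each, and dashed lines at 1.5-fold. Of the 10 genes 5 lay above zero and 5 below, and the enzymes acting on imported nutrients had a median of 0.226.

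The whole solute carrier family gives a wider frame for the transporters. Of the 373 genes with an Slc symbol, 144 were well expressed, 77 were higher and 67 lower, and the median log2 fold change was 0.018. Past 1.5-fold were 5 higher and 5 lower, or 6.94%, where 10.2% of all well-expressed genes were (3.95% higher and 6.29% lower). The gene past 2-fold, named after its value was seen, was Slc25a23, a mitochondrial ATP and phosphate carrier, with log2 values of 11.102 and 10.084, and its log2 fold change of -1.018 was -0.793 without the GC trend, no longer past 2-fold. The other 4 lower ones were Slc14a1, Slc2a6, Slc41a3 and Slc2a8. The 5 higher ones were Slc25a14, Slc39a10, Slc19a2, Slc30a9 and Slc7a3. Without the GC trend Slc2a6, Slc2a8 and Slc30a9 (0.578) were no longer past 1.5-fold.

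The fold changes of all genes fell as the GC content of the transcript rose, and this trend ran through the 10 genes as well. Over 8579 well-expressed genes with an annotated transcript, the bin with the lowest GC content of 20 (median 38.8%) had a median log2 fold change of 0.229, and the bin with the highest (60.9%) had -0.453. The 10 genes covered 42.9% to 56.7%. Slc16a1, the gene with the highest fold, had the lowest GC content, and the trend at its GC content was 0.192. Slc16a3 and Slc1a5, both lower in the library labelled KO Th1, had 56.6% and 56.7%, where the trend was -0.235 and -0.238. With the trend subtracted, the log2 fold change was 0.293 for Slc16a1, -0.078 for Slc16a3, -0.054 for Slc2a1 and -0.020 for Myc. Slc2a3 and the system L pair went the other way and lay farther from zero after the subtraction. Slc2a3 moved out to -0.562, and 6.92% of well-expressed genes then differed as much. Slc7a5 moved out to 0.439 and Slc3a2 to 0.263, with 14.1% and 35.1% differing as much.

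**Figure D4:**
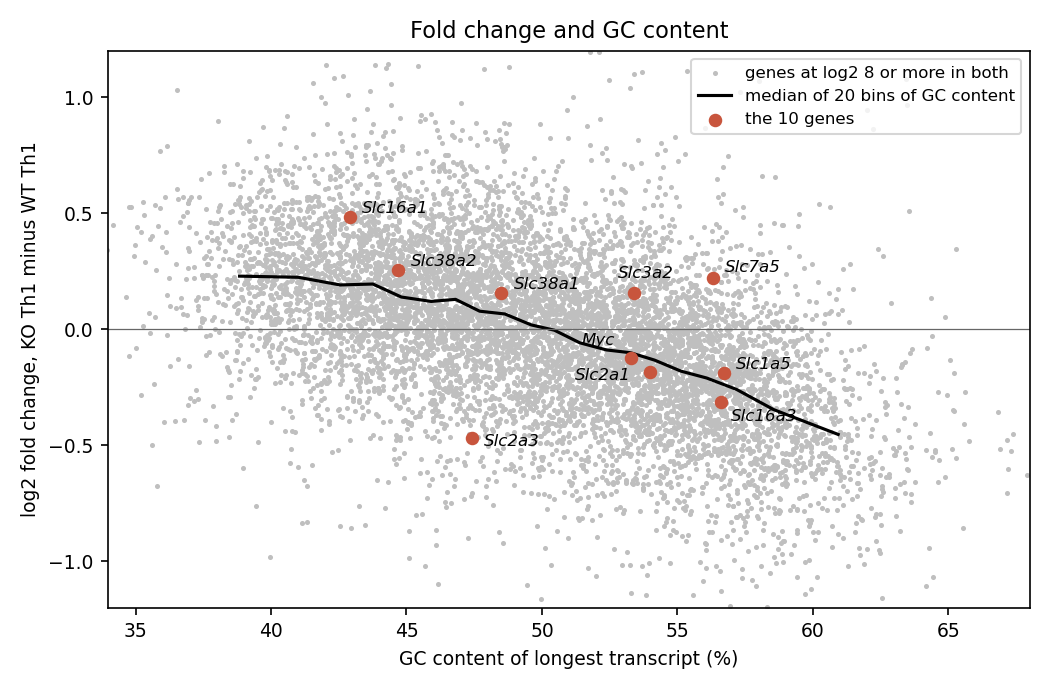
Log2 fold change (KO Th1 minus WT Th1) against the GC content of the longest transcript (%) for well-expressed genes (grey), the median of 20 bins (line) and the 10 genes (labelled), n = 1 library each. Genes outside the axes are not drawn. Slc2a3 lay farthest below the line, at -0.469, and Slc7a5 farthest above it, at 0.219.

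The signs of 8 of the 10 genes held under all 7 alternatives, and those of Slc1a5 and Myc did not. Changing the constant before the log cannot change a sign, and median-ratio scaling moved the median over well-expressed genes by only 0.006. Slc2a1 kept its sign narrowly, at -0.007 after quantile normalization. Scaling to Actb raised the median over well-expressed genes by 0.116 on the log2 scale, and scaling to the total without Rn45s raised it by 0.141. Under these scalings Slc16a1 had log2 fold changes of 0.601 and 0.626, just past 1.5-fold, and Slc2a1 had -0.066 and -0.041. Rn45s took 2.83% of the normalized counts in the library labelled WT Th1 and 1.0% in the library labelled KO Th1.

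**Figure D5:**
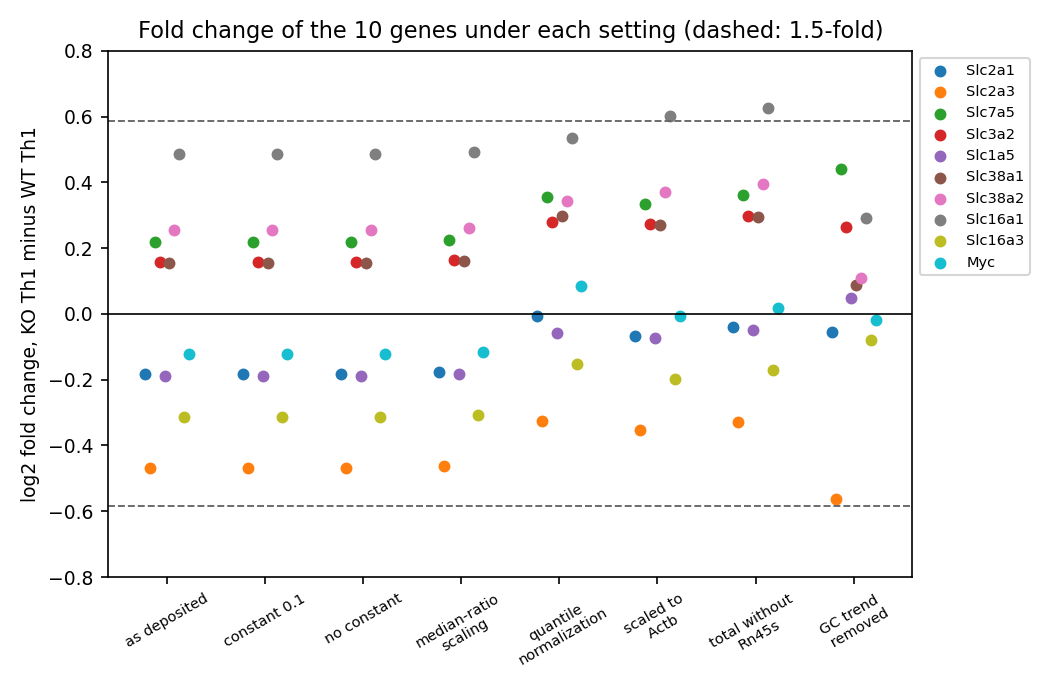
Log2 fold change (KO Th1 minus WT Th1) of the 10 genes as deposited and under 7 alternative settings, n = 1 library each, with dashed lines at 1.5-fold. Slc16a1 passed the line under scaling to Actb (0.601) and to the total without Rn45s (0.626), and Myc and Slc1a5 changed sign.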

How the data were processed

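Messenger RNA libraries were made with the SENSE mRNA-Seq kit and sequenced from both ends, and the authors mapped the reads with TopHat (build mm10 in the submitters' processing notes). The authors used edgeR on counts that included reads aligned at several places, estimated FPKM with Cufflinks, and normalized globally between samples. Version numbers of TopHat, edgeR and Cufflinks themselves, and the gene annotation, were not given in the sources used here. The deposited tables hold 1 log2 value per gene, taken from the values themselves as log2 of the normalized count plus 1 and not as FPKM, since nearly all low values shared 1 step, though the lowest values above 0 varied slightly between genes. Below 100 normalized counts, 99.9% of the values above 0 in each library lay within 0.1 of a whole read, with 1 read worth 0.970 in the library labelled WT Th1 and 0.969 in the library labelled KO Th1. Reads rebuilt so summed to 70548109 and 62886775. At higher values, where all 10 genes lie, the rounding of the log makes them approximate.

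The log2 fold change was the value labelled KO Th1 minus that labelled WT Th1, with a Clopper-Pearson (exact binomial) 95% interval computed on rebuilt reads. The interval of a ratio used the normal approximation. Length, GC content, coordinates and shared windows came from GENCODE M21 (GRCm38, the same build as mm10), where 96.5% of the well-expressed genes (reaching log2 8 in each library) had a transcript. The GC trend was interpolated between the medians of 20 bins.

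The members and lists were chosen with earlier results of these data known. Named were all members, their partners and closest relatives, and the 3 widest differences among well-expressed genes of each list, of which 1 gene is not reported here. Within-library ratios, the log2 floor of 12 and the names of the Slc genes past 1.5-fold were added after the values were seen. Castor1, Castor2 and Ly6g were not in the tables. Alternatives were a constant of 0.1 or none before the log, median-ratio, quantile, Actb and total-count scaling, removal of the GC trend, folds of 1.5 and 3, other lengths, other bins and windows of 50 bases. The steps were tested on simulated data. Scripts ran in Python 3.11.15 with scipy 1.17.1, pandas 2.3.3 and numpy 2.4.6, and matplotlib 3.10.9 drew the plots.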

Additional observations from a re-analysis of the deposited data

How the results depend on the processing

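No paired analysis was possible because each genotype had 1 library. No member was past 2-fold under any of the 7 alternatives, although changing the constant before the log could hardly move genes with such counts. As deposited none was past 1.5-fold, so none could be past the 3-fold line. The count past 1.5-fold went from 0 to 1 (Slc16a1) when scaled to Actb or to the total without Rn45s. The median over the 10 genes, 0.016 as deposited, was 0.183 after quantile normalization, 0.132 scaled to Actb, 0.157 scaled to the total without Rn45s and 0.069 without the GC trend. The median over all well-expressed genes, -0.011 as deposited, was 0.016, 0.105, 0.13 and 0.0 in the same settings. Quantile normalization can shift genes by different amounts at different levels. The median over genes reaching log2 12 in each library was -0.097 as deposited and was not computed in these settings. Of 70 member values under the alternatives, 39 left their counting interval and 3 changed sign, for Myc and Slc1a5. The Slc genes past 1.5-fold went from 10 to 16 when scaled to the total without Rn45s. The share of genes past 2-fold, 10.5% of all genes, was 16.5% for genes reaching log2 1 in either library, 1.2% for those reaching 8 in both and 0.403% for those reaching 12 in both. The span of the GC trend, 0.682 in 20 bins, was 0.618 in 10 and 0.737 in 40. Levels per kilobase by the median coding transcript were up to 43673 (Slc2a1) and 39396 (Slc2a3) in the library labelled WT Th1, because short partial transcripts enter that median. Depth did not limit these genes, whose widest counting interval was 0.053 to each side, whereas the spread between mice or cultures was not measured.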
